A study of Mus musculus with 8 samples.

Results

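The genes described here are 47 S, G2 and M phase genes of the mouse: 18 genes of DNA replication, such as the Mcm helicase subunits, Pcna and the E-type cyclins, and 29 genes of G2 and mitosis, such as Plk1, Cdc20 and the Aurora kinases. They were chosen by name as members of these classes, with earlier results of these data known. Each was looked up by its symbol among the 18138 probes of the array. A probe carried the symbol of 44 of the 47 genes, 1 probe for each. Ccnb1, Aurkb and Mki67 had none that the annotation names and were not analysed here. The cells were C2C12, mouse myoblasts, in which BMP-2 blocks muscle differentiation and induces osteoblast genes. All cells were kept without serum for 4 h before stimulation and received their inhibitor or solvent after the first 2 h. The inhibitor or solvent stayed in the medium for the 6 h that followed, with or without BMP-2. Dynasore was taken from a stock solution in DMSO. The DMSO group had 0.05% DMSO only, the BMP-2+DMSO group had DMSO and then 30 nM BMP-2 for 6 h, the Dynasore group had 40 µM dynasore, an inhibitor of the GTPase dynamin, and the BMP-2+Dynasore group had 40 µM dynasore and 30 nM BMP-2 for 6 h. Each group held 2 biological duplicates, hybridized to 8 Illumina arrays in all.

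Replication genes and mitotic genes are switched on in different phases of the cell cycle. E2F transcription factors drive the former from late G1 into S phase, where origins are licensed by Cdc6, Cdt1 and the Mcm helicase and nucleotides are supplied by ribonucleotide reductase, thymidine kinase and thymidylate synthase. The latter are switched on in G2 through promoters that carry a CHR element (cell cycle genes homology region), often with CCAAT boxes, and their products, among them Cdk1, polo-like kinase, kinesins and the spindle checkpoint, carry the cell through mitosis until the anaphase promoting complex with Cdc20 or Fzr1 ends it. In a bulk RNA sample, fewer cells in a phase and less RNA per cell cannot be told apart.

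Levels are log2 values of the authors' normalized intensities after a background correction with an offset of 16 and quantile normalization, and a gene counts as changed at a limma adjusted p under 0.05 over all 10244 tested probes. Tested probes were above the background limit on at least 2 arrays. Of the 44 genes with a probe, 37 were tested, 16 replication and 21 mitotic genes. Gmnn, Pola1, Ccnb2 and Ube2c were above background on 0 arrays, and Bub1, Ttk, and Cenpe on 1 array each.

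One array stood apart. On BMP-2+DMSO replicate 2 the mode of the dim probes was 242 intensity units against -1.20 to 45.2 on the other arrays. There 7429 probes were above background against 8874 to 9464. The correlation with replicate 1 over all tested probes was 0.777 against 0.979 to 0.995 in the other pairs of duplicates. On BMP-2+DMSO replicate 2, 20 of the 37 tested members lay over 1 log2 unit from the DMSO mean, against 1 on replicate 1. BMP-2+Dynasore replicate 2 had the mode of 45.2, where the remaining arrays reached at most 14.2, and its pair of duplicates had the correlation of 0.979. The differences between duplicates in BMP-2+DMSO and in BMP-2+Dynasore correlated at 0.50. The significance test of the study used 7 arrays, one of the BMP-2+DMSO duplicates being left out, and the fit reported first here used the same number with replicate 2. Each comparison with BMP-2+DMSO is given with replicate 1 in its place as well, and a gene is described as changed there only when both fits called it in the same direction. In each of these fits BMP-2+DMSO is 1 array and adds nothing to the spread. The SE and adjusted p of its comparisons assume that it varies like the other groups. They leave out the distance between its own duplicates. Dynasore comparisons without BMP-2+DMSO have the same log2 differences in every one of these fits. Among the myoblast markers Des was above background on 8 arrays, Myod1 on 7, Myog on 6 and Myf5 on 0, while Pecam1, Cdh5, Kdr, Ptprc, Cdh1, Adipoq and Plin1 of other cell types were above it on 0, Cd3e on 1 and Krt8, a keratin, on 7.

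Mitotic genes fell with dynasore. Of the 21 tested, 16 were lower in Dynasore than in DMSO and 1, Cdc27, was higher, with a median log2 difference of -1.01, where 19.5% of all tested probes were called lower and 17.9% higher and the median over all probes was -0.0029. The duplicates of the groups did not overlap in 18 mitotic genes that were lower in Dynasore and in 1 that was higher, against 36.5% and 36.0% of all tested probes. Plk1, polo-like kinase 1, which drives mitotic entry and spindle assembly, fell most, 4.36-fold. With all 8 arrays in the fit the spread also takes in the distance between the BMP-2+DMSO duplicates, and 1 mitotic gene, Prc1, stayed called lower (1.54% of all tested probes).

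On the arrays, in the order replicate 1 and replicate 2, Plk1 read 10.79 and 10.86 in DMSO, 8.81 and 8.59 in Dynasore, 8.88 and 8.79 in BMP-2+Dynasore, and 10.75 and 12.11 in BMP-2+DMSO. All 4 arrays with dynasore lay below all 4 without it, and Dynasore minus DMSO was -2.13 (SE 0.13, n = 2 arrays per group, adjusted p = 6.7e-07). Cdc20, the activator of the anaphase promoting complex at anaphase, read 11.30 and 11.36 in DMSO, 10.02 and 9.74 in Dynasore, 10.03 and 9.76 in BMP-2+Dynasore, and 11.30 and 10.56 in BMP-2+DMSO, again with no overlap between arrays with and without dynasore. Its difference was -1.45 (SE 0.14, adjusted p = 1.9e-05). Prc1 bundles the antiparallel microtubules of the central spindle. It read 13.01 and 12.92 in DMSO, 11.64 and 11.61 in Dynasore, 11.57 and 11.69 in BMP-2+Dynasore, and 12.79 and 13.30 in BMP-2+DMSO, and it fell by 1.34 (SE 0.10, adjusted p = 2.95e-06), or with adjusted p = 0.024 in the fit of all 8 arrays.

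Kif11, the kinesin that pushes the spindle poles apart, read 9.63 and 9.82 in DMSO, 8.50 and 8.32 in Dynasore, and 8.35 and 8.38 in BMP-2+Dynasore. It stood at 9.63 and 7.51 in BMP-2+DMSO, so that its low value on BMP-2+DMSO replicate 2 lay below the dynasore arrays, and Dynasore minus DMSO was -1.32 (SE 0.14, adjusted p = 4.6e-05). Birc5, survivin, a subunit of the chromosomal passenger complex with Aurora kinase B, read 11.42 and 11.53 in DMSO, 10.09 and 10.23 in Dynasore, 10.37 and 9.97 in BMP-2+Dynasore, and 11.43 and 9.53 in BMP-2+DMSO. The pattern was the same as for Kif11, with a difference of -1.31 (SE 0.14, adjusted p = 4.9e-05). In the fit of all 8 arrays the adjusted p of Plk1 and of Cdc20 was 0.053 each, that of Kif11 0.37 and that of Birc5 0.31.

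**Figure D1:**
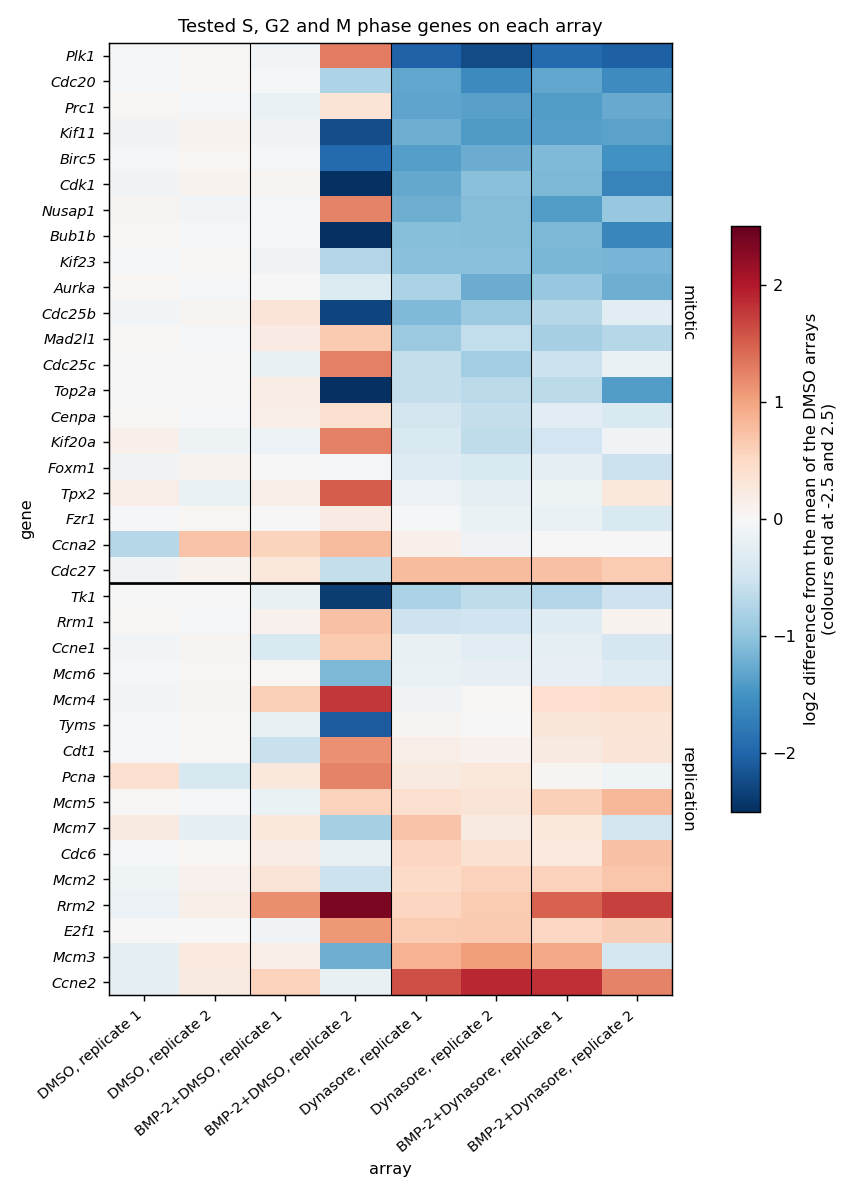
Log2 difference of each tested gene (rows, mitotic above and replication below the line) from the mean of the DMSO arrays on each of the 8 arrays (columns). On the 4 dynasore arrays most mitotic genes are lower, on BMP-2+DMSO replicate 1 they lie near DMSO, and BMP-2+DMSO replicate 2 goes both ways.

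The other 11 mitotic genes that fell have different roles. Among the kinases and phosphatases of mitotic entry, Cdk1 fell by 1.17, Aurka, Aurora kinase A of the spindle poles, by 1.02, Cdc25b by 1.01 and Cdc25c by 0.73 on the log2 scale. Of the spindle checkpoint, Bub1b fell by 1.08 and Mad2l1 by 0.77. Among the microtubule proteins, Nusap1, which binds spindle microtubules near the chromosomes, fell by 1.15, Kif23, the kinesin of the central spindle, by 1.05 and Kif20a, a kinesin of cytokinesis, by 0.51. Top2a, topoisomerase II alpha, which untangles sister chromatids, fell by 0.64 and Cenpa, the histone H3 variant of centromeres, by 0.53. The adjusted p of these 11 genes ran from 3.8e-05 for Kif23 to 0.045 for Kif20a.

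Cdc27, a subunit of the anaphase promoting complex, went the other way. From the same arrays it had already been named in the study among genes regulated by dynasore alone. It read 7.63 and 7.82 in DMSO, 8.51 and 8.51 in Dynasore, 8.45 and 8.37 in BMP-2+Dynasore, and 8.01 and 7.14 in BMP-2+DMSO. The 4 dynasore arrays were thus the 4 highest, and the difference was 0.79 (SE 0.15, adjusted p = 0.0018). Of 11 tested anaphase promoting complex subunits, Cdc27 included, 3 were higher and 3 lower, beside 17.9% and 19.5% of all tested probes, and with all 8 arrays limma called 0 (0 higher and 1 lower at an unadjusted p under 0.05). Anapc13 stood at -1.45 (SE 0.135, adjusted p = 1.5e-05) and Anapc2, the cullin subunit, at -0.68 (SE 0.16, adjusted p = 0.0061). Anapc2 did not pass without DMSO replicate 2 (adjusted p = 0.075) or Dynasore replicate 1 (adjusted p = 0.062). Of the remaining mitotic genes, Foxm1, the transcription factor of G2 genes, differed by -0.35 (SE 0.14, adjusted p = 0.0755), Tpx2, the activator of Aurora kinase A, by -0.19 (adjusted p = 0.49), Fzr1, the other activator of the anaphase promoting complex, by -0.10 (adjusted p = 0.52) and Ccna2, cyclin A2, by 0.02 (adjusted p = 0.98). Ccna2 was above background on 2 arrays only, one of DMSO and one of BMP-2+DMSO, so its change is poorly bounded.

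**Figure D2:**
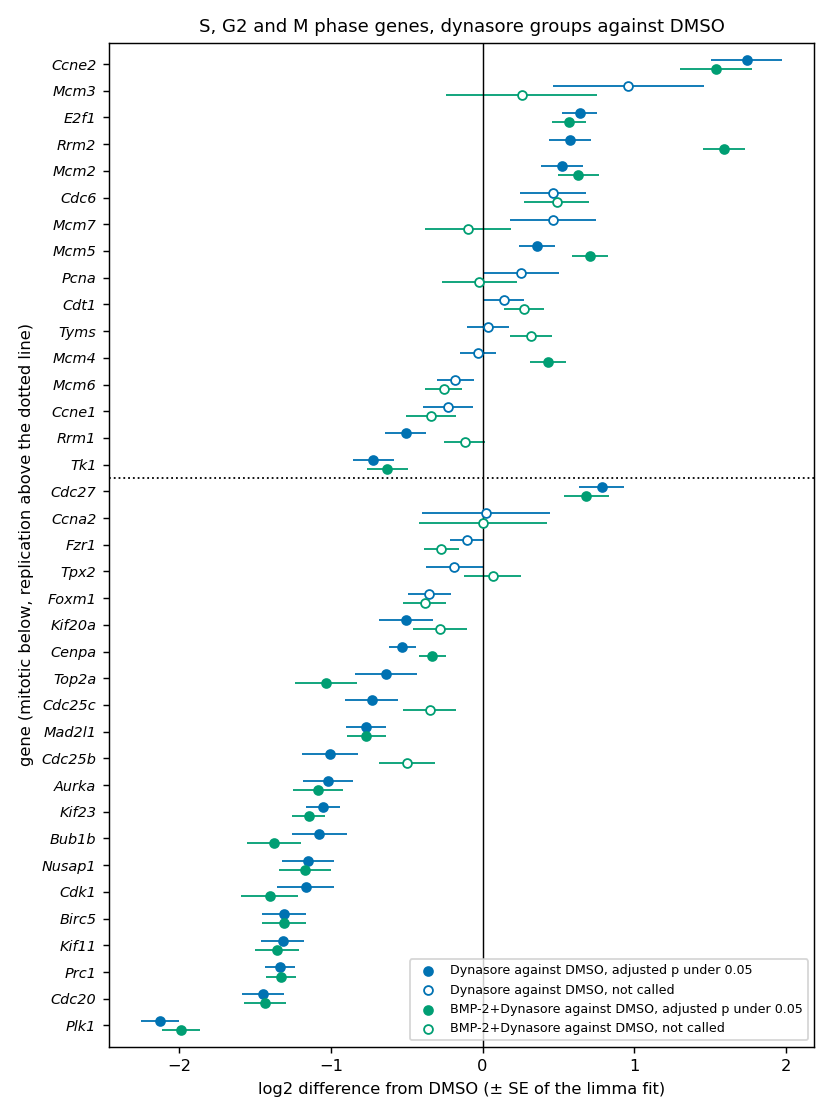
Log2 difference from DMSO of each tested gene (± SE of the limma fit, 7 arrays) in Dynasore and in BMP-2+Dynasore, with filled points for adjusted p under 0.05. Mitotic genes reach from -2.13 for Plk1 to 0.79 for Cdc27 in Dynasore, and replication genes from -0.72 for Tk1 to 1.74 for Ccne2.

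Promoters were not used to choose the genes, but CHR elements are known for mitotic genes as a class. Matches in the mitotic genes therefore describe that class and are no independent result. RefSeq promoters of GRCm38.p6, 250 bases before to 50 after each gene's start, were at hand for 23 of the 29 mitotic and 15 of the 18 replication genes, and not for Mcm4, Gmnn, Ccne2, Ccna2, Cdc25c, Aurkb, Kif20a, Tpx2 and Foxm1. The letters searched on both strands were TTTGAA and TTCGAA for the CHR element, CCAAT for the CCAAT box, and TTTGGCGC, TTTCCCGC, TTTGCCGC and TTTCGCGC for E2F. A CHR match was found in 16 of the 23 mitotic genes (70.8% of their 24 promoters) and in 2 of the 15 replication genes (12.5% of 16), against 19.2% of all 32851 promoters. Within 50 bases of the start on either side a CHR match stood in 15 mitotic genes (66.7% of promoters) and in 0 replication genes, against 5.31% of all promoters. CCAAT was in 87.5% of the mitotic and 62.5% of the replication promoters, against 37.4% of all. E2F matches were in 7 replication genes (43.8% of promoters) and in 1 mitotic gene, Cdk1 (4.17%), against 2.26% of all. Among promoters of genes with a tested probe the shares were 13.8% for CHR, 3.53% for CHR near the start, 37.9% for CCAAT and 3.78% for E2F. The CHR share of the replication genes was thus near that of tested genes. Mitotic genes outside the 29 held CHR in 72.7% of their promoters. Of the 14 mitotic genes called lower that had a promoter, 11 held both CHR and CCAAT, and Birc5, Nusap1 and Mad2l1 held neither. Both were in 16 of all 23 mitotic genes and in 7.52% of all promoters. Only 2 tested mitotic genes not called lower had a promoter, Cdc27 and Fzr1, which held CCAAT but no CHR. Whether a match goes with a fall was not tested. A match is a description of the letters only. The promoters shown are those of the 4 mitotic genes that fell most, of Cdc27, which rose, and of a replication gene that rose, Mcm5. They run from 160 bases before to 50 bases after the start, with matches in capitals. They lie at chr7:122159275-122159484, plus strand (Plk1), chr4:118437294-118437503, minus strand (Cdc20), chr7:80294291-80294500, plus strand (Prc1), chr19:37376222-37376431, plus strand (Kif11), chr11:104550571-104550780, minus strand (Cdc27) and chr8:75109349-75109558, plus strand (Mcm5), and each is written 5′ to 3′ along the gene.
Plk1: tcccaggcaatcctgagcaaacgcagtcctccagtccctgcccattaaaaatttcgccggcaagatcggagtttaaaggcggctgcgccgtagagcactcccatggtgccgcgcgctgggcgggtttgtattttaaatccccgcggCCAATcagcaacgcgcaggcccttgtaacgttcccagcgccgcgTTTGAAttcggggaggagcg
Cdc20: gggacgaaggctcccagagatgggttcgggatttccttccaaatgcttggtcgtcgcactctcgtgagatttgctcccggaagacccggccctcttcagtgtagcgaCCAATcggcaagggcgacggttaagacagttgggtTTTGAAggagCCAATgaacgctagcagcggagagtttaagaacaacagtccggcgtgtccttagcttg
Prc1: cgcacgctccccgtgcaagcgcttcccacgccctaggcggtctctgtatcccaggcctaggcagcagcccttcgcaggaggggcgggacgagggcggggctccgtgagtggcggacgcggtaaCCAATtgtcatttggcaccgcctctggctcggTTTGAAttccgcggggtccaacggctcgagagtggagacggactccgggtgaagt
Kif11: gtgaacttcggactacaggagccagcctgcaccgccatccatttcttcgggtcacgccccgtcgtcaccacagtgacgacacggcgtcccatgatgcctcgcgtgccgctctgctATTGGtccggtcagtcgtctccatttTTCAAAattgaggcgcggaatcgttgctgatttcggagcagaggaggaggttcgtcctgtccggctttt
Cdc27: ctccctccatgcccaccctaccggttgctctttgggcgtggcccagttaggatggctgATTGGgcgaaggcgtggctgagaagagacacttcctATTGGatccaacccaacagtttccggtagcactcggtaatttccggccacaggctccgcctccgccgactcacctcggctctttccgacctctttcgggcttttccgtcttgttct
Mcm5: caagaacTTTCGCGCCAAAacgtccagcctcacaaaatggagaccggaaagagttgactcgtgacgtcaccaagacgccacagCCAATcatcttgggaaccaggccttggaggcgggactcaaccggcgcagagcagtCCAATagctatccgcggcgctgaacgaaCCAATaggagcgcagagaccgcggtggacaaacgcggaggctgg
In Plk1 the CHR match stands after the start, and in Cdc20, Prc1 and Kif11 it begins before the start. A CCAAT box, on either strand, stands upstream of the CHR match in all 4. Birc5, whose fall came next in size, held neither CHR nor CCAAT. Mcm5 opens with 2 overlapping E2F matches and has CCAAT boxes without a CHR match. Of the other replication genes called higher, each with a larger rise, E2f1, Rrm2 and Mcm2 held no E2F match. Mcm2 held a CHR match, and Ccne2 had no promoter at hand.

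Replication genes went both ways with dynasore, more of them up than down. Of the 16 tested, 5 were higher in Dynasore than in DMSO (Ccne2, E2f1, Rrm2, Mcm2 and Mcm5) and 2 lower (Tk1 and Rrm1), with a median log2 difference of 0.31, beside the 17.9% and 19.5% of all tested probes. That median was 0.20 with Cdc6 at its bound or without a filter on dim probes, 0.18 without further normalization, and 0.057 over probes above background on all 8 arrays. The median mitotic difference on the single arrays was -0.92 on both Dynasore arrays and -0.83 and -0.94 on the BMP-2+Dynasore arrays. The median replication difference there was 0.32, 0.25, 0.28 and 0.34, so that the medians of these lists lay on opposite sides of DMSO on each dynasore array. Without DMSO replicate 1, or without Dynasore replicate 2, 3 of the 37 tested genes, replication and mitotic, were called higher in place of 6. With all 8 arrays limma called 0 replication genes (1.67% of all tested probes higher), and 1 was higher and 0 lower at an unadjusted p under 0.05.

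Ccne2, cyclin E2, which activates Cdk2 at the start of S phase, rose most. It read 5.87 and 6.32 in DMSO, 7.70 and 7.98 in Dynasore, 7.93 and 7.34 in BMP-2+Dynasore, and 6.66 and 5.91 in BMP-2+DMSO, with all dynasore arrays above all others. Dynasore minus DMSO was 1.74 (SE 0.23, adjusted p = 2.4e-04), although the probe was above background on only 1 of the 2 DMSO arrays. Its relative Ccne1 did not pass, at -0.23 (SE 0.16, adjusted p = 0.32). E2f1, the factor that drives many of these genes, read 9.44 and 9.40 in DMSO, 10.05 and 10.06 in Dynasore, 9.94 and 10.04 in BMP-2+Dynasore, and 9.33 and 10.50 in BMP-2+DMSO, and rose by 0.64 (SE 0.115, adjusted p = 0.0013). The E2f1 duplicates of Dynasore lay close together, above both of DMSO.

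Of the helicase genes, Mcm2 read 8.64 and 8.84 in DMSO, 9.22 and 9.32 in Dynasore, 9.32 and 9.44 in BMP-2+Dynasore, and 9.06 and 8.21 in BMP-2+DMSO. It rose by 0.52 (SE 0.14, adjusted p = 0.0115), a call that leaving out any single DMSO or Dynasore array but DMSO replicate 2 ended (adjusted p = 0.058 to 0.12). Mcm5 rose by 0.36 (SE 0.12, adjusted p = 0.034). The other helicase genes did not pass: Mcm3 stood at 0.96 with an SE of 0.50, Mcm7 at 0.46, Mcm4 at -0.03 and Mcm6 at -0.18. Among the licensing factors and the clamp, Cdc6 was above background on 3 arrays, all with dynasore, and on neither DMSO array, and was at least 1.09-fold higher in Dynasore (adjusted p = 0.12). Pcna stood at 0.25 (adjusted p = 0.48) and Cdt1 at 0.14 (adjusted p = 0.45).

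The enzymes of nucleotide supply were divided. Rrm2, the regulated small subunit of ribonucleotide reductase, read 8.87 and 9.16 in DMSO and 9.54 and 9.64 in Dynasore, a rise of 0.58 (SE 0.14, adjusted p = 0.0077) that did not pass without DMSO replicate 1 (adjusted p = 0.092) or without Dynasore replicate 2 (adjusted p = 0.070). Rrm1, the large subunit of the same enzyme, read 10.81 and 10.77 in DMSO, 10.28 and 10.29 in Dynasore, 10.48 and 10.87 in BMP-2+Dynasore, and 10.91 and 11.52 in BMP-2+DMSO, and fell by 0.51 in Dynasore (SE 0.14, adjusted p = 0.013). Its call was lost whenever 1 DMSO or Dynasore array was left out (adjusted p = 0.066 to 0.087). Tk1, thymidine kinase, read 9.80 and 9.79 in DMSO, 9.003 and 9.154 in Dynasore, 9.06 and 9.28 in BMP-2+Dynasore, and 9.60 and 7.43 in BMP-2+DMSO. It fell by 0.72 (SE 0.14, adjusted p = 0.0019), and the low value on BMP-2+DMSO replicate 2 stands alone. Tyms, thymidylate synthase, stood at 0.03 (adjusted p = 0.89).

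**Figure D3:**
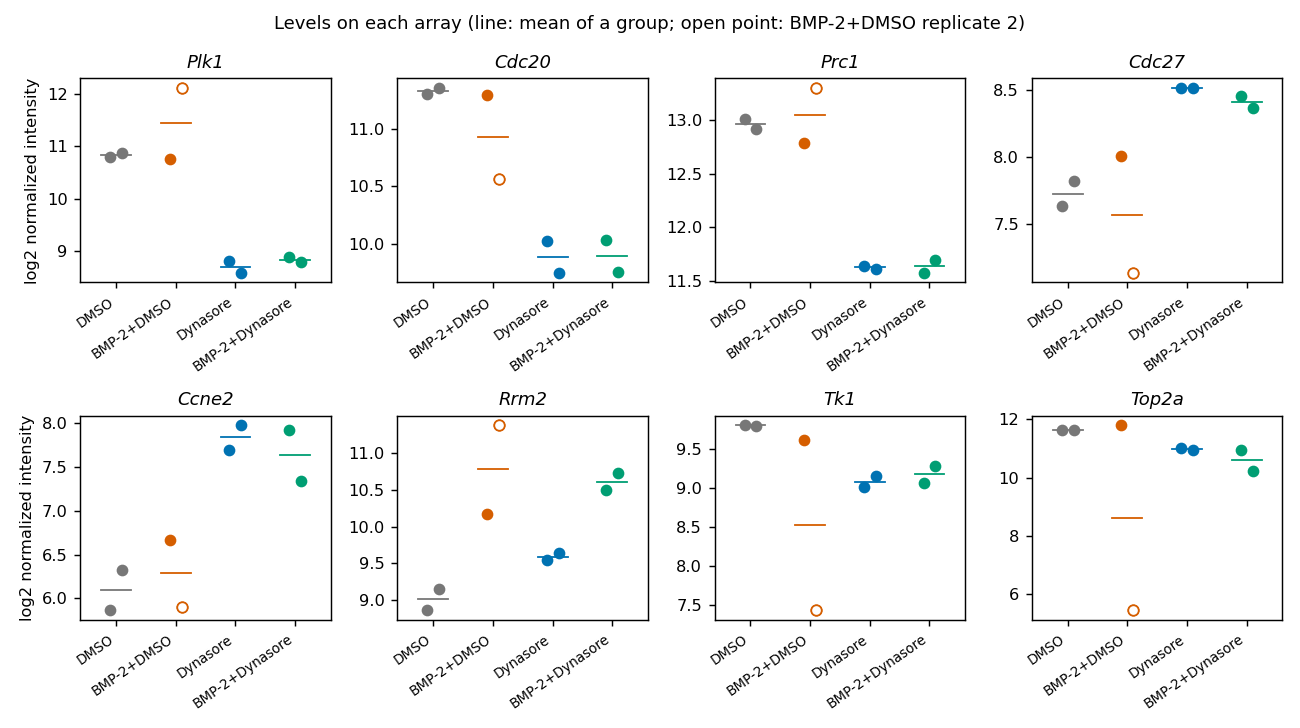
Log2 normalized intensity of 8 genes on each array by group (points, 2 arrays per group, with a line at the mean; the open point is BMP-2+DMSO replicate 2). Plk1, Cdc20 and Prc1 are lower and Cdc27 and Ccne2 higher on all dynasore arrays than on all others, and Rrm2 is higher with BMP-2 than without it both in DMSO and in dynasore.

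With BMP-2 and dynasore together, mitotic genes were again lower than in DMSO and most replication genes that passed were higher. In BMP-2+Dynasore against DMSO, which shares its DMSO arrays with the comparison above, 13 mitotic genes were lower and 1, Cdc27, higher, and 6 replication genes were higher and 1, Tk1, lower, against 18.9% lower and 19.5% higher of all tested probes. Plk1 stood at -1.99 (SE 0.13, adjusted p = 1.1e-06), Cdc20 at -1.44, Prc1 at -1.33, Kif11 at -1.36 and Birc5 at -1.31. Ccne2 stood at 1.54 (SE 0.23, adjusted p = 5.1e-04). Cdc25b (-0.50, adjusted p = 0.054), Cdc25c (-0.35, adjusted p = 0.14) and Kif20a (-0.28, adjusted p = 0.25) were called lower in Dynasore but did not pass here. Mcm4 passed here (0.43, SE 0.12, adjusted p = 0.014) and not in Dynasore. Without DMSO replicate 1 the genes called higher numbered 4 in place of 7, and with all 8 arrays the fit called Prc1 lower and 0 genes higher (1.57% of all tested probes lower and 1.98% higher, and 3 genes higher at an unadjusted p under 0.05).

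BMP-2+Dynasore against Dynasore tests the effect of BMP-2 in the presence of dynasore directly. It called 1 of the 37 genes, Rrm2, higher, and 0 lower, beside 0.654% and 0.225% of all tested probes, and 5 genes had an unadjusted p under 0.05, all of them higher. Rrm2 read 9.54 and 9.64 in Dynasore and 10.49 and 10.72 in BMP-2+Dynasore, a rise of 1.01 (SE 0.14, adjusted p = 0.0051). That call was lost without Dynasore replicate 1 (adjusted p = 0.087) and with all 8 arrays (adjusted p = 1.0). The 21 mitotic genes lay between -0.40 (Top2a) and 0.51 (Cdc25b), with a median of -0.02. For Plk1 the 95% confidence interval of the difference ran from -0.14 to 0.42, for Cdc20 from -0.30 to 0.32 and for Prc1 from -0.21 to 0.23. Without BMP-2+Dynasore replicate 1, 6 genes were called higher and 5 lower.

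With BMP-2 alone the mitotic genes stayed near DMSO on replicate 1, with a median difference of -0.01, and scattered on replicate 2, with a median of -0.06 and a range from -5.01 to 1.51 when genes not above background there stand at their bound. Both fits called 2 replication genes higher, Rrm2 and Mcm4, and 0 mitotic genes in either direction, where 1.39% of all tested probes were called higher with either array and 1.4% lower. Rrm2 read 8.87 and 9.16 in DMSO and 10.17 and 11.37 in BMP-2+DMSO, higher by 2.36 (SE 0.17, adjusted p = 9.9e-07) with replicate 2 and by 1.16 (SE 0.17, adjusted p = 0.00295) with replicate 1. Mcm4 read 9.50 and 9.63 in DMSO and 10.16 and 11.34 in BMP-2+DMSO, higher by 1.78 (SE 0.145, adjusted p = 2.5e-06) and by 0.60 (SE 0.147, adjusted p = 0.048). In the fit of all 8 arrays neither passed (adjusted p = 0.27 and 0.49), and 0 of the 37 genes did (2 higher and 0 lower at an unadjusted p under 0.05), beside 0.156% of all tested probes higher and 0.0488% lower.

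The fit with replicate 2 alone called 16 of the 37 genes higher and 13 lower than DMSO, beside 41.3% and 28.1% of all tested probes, while replicate 1 gave 2 and 0 (2 and 1 at an unadjusted p under 0.05), beside 2.06% and 2.54%. The largest gap was in Top2a, at 11.80 on replicate 1 and 5.45 on replicate 2, the latter not above background, so that it was at least 32.3-fold lower there than in DMSO. Cdk1 (9.95 and 5.84), Bub1b (9.58 and 5.63) and Cdc25b (8.45 and 5.83) were likewise not above background on replicate 2 only. Of the mitotic genes, Plk1, Nusap1, Cdc25c, Kif20a and Tpx2 went the other way there, each by over 1 log2 unit above DMSO.

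**Figure D4:**
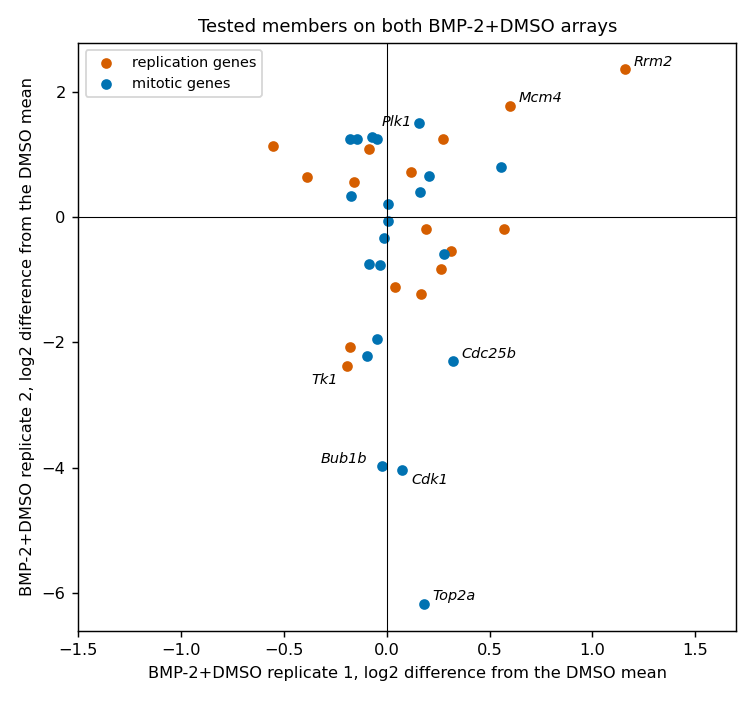
Difference from the DMSO mean (log2) of each tested gene on BMP-2+DMSO replicate 1 (x axis) and replicate 2 (y axis), by class. Replicate 1 keeps all genes but Rrm2 within 1 log2 unit of DMSO, whereas replicate 2 spreads up to 2.36 (Rrm2), and Rrm2 and Mcm4 are high on both. The lowest points on replicate 2, Top2a, Cdk1 and Bub1b, were not above background there. They are drawn at their log2 levels and not at their bounds, so their drawn size is no measured one. The same holds for Cdc25b, Tyms, Mcm3, Mcm7, Cdc6, Ccne2 and Ccna2.

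In the presence of BMP-2, 8 mitotic genes were lower with dynasore than without it. BMP-2+Dynasore against BMP-2+DMSO called 8 mitotic genes lower with either BMP-2+DMSO array (Plk1, Nusap1, Prc1, Mad2l1, Cdc20, Aurka, Kif23 and Cenpa) and 2 replication genes higher (Tyms and Ccne2), where 7.87% of all tested probes were called lower and 7.47% higher with either array. Plk1 differed by -3.28 (SE 0.155, adjusted p = 3.3e-08) with replicate 2, by -1.92 (SE 0.16, adjusted p = 1.35e-05) with replicate 1 and by -2.60 (adjusted p = 0.030) with all 8 arrays. Nusap1 read 9.09 and 10.38 in BMP-2+DMSO and 7.74 and 8.20 in BMP-2+Dynasore, without overlap. It differed by -2.42 (SE 0.21, adjusted p = 3.0e-06) and -1.12 (adjusted p = 0.0027) in the first 2 of these fits, and by -1.77 (adjusted p = 0.094) in the third. Prc1 differed by -1.67 (SE 0.12, adjusted p = 8.1e-07) and -1.16 (adjusted p = 7.7e-05), while the fit of 8 arrays gave -1.41 (adjusted p = 0.020).

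Tyms read 8.37 and 6.48 in BMP-2+DMSO and 8.84 and 8.89 in BMP-2+Dynasore. Replicate 2 was not above background for it, so that it was at least 4.77-fold higher in BMP-2+Dynasore against that array (adjusted p = 7.2e-07), a bound set by the lowest intensity above background, and 0.50 higher on the log2 scale against replicate 1 (adjusted p = 0.044). Ccne2 was at least 2.03-fold higher against replicate 2 (adjusted p = 4.0e-04), likewise not above background, and 0.97 higher against replicate 1 (adjusted p = 0.030). Cdk1, Bub1b, Top2a, Kif11, Birc5 and Cdc25b were called higher than BMP-2+DMSO with replicate 2 and lower with replicate 1, and Cdt1 and E2f1 the other way round, so no direction is given for these 8. With replicate 2 the fit gave 13 higher and 19 lower (28.7% and 38.4% of all tested probes), with replicate 1 it gave 5 and 14 (15.5% and 13.5%), and with all 8 arrays 0 and 3 (1.75% and 1.84%).

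Whether the effect of BMP-2 differed with dynasore was tested as an interaction, the BMP-2 difference in dynasore minus that in DMSO. With replicate 2 limma called 12 of the 37 genes higher and 12 lower, beside 23.3% and 32.9% of all tested probes. With replicate 1 it called 0 in either direction (2 higher and 0 lower at an unadjusted p under 0.05), beside 0.752% and 0.342%, so that 0 were called with either array (0.390% and 0.215%), and with all 8 arrays 0 of the 37 and 0 of all tested probes. For Plk1 the interaction was -1.15 with replicate 2 and 0.21 with replicate 1.

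Genes of the same processes outside the 47 were counted from fixed lists, which were likewise drawn up with earlier results known. Of 28 other mitotic genes tested, 17 were lower in Dynasore than in DMSO and 0 higher, with a median of -0.56 (0 higher and 21 lower at an unadjusted p under 0.05), beside 19.5% lower and 17.9% higher of all tested probes. With all 8 arrays limma called 0 of these 28 genes (0 higher and 11 lower at an unadjusted p under 0.05). Espl1, separase, which cuts cohesin at anaphase, stood at -1.92 (SE 0.18, adjusted p = 1.8e-05), Lmnb1, lamin B1 of the nuclear lamina, at -1.63 (SE 0.14) and Pttg1, securin, the inhibitor of separase, at -1.35 (SE 0.19). Of 36 other replication genes tested, 12 were higher and 6 lower, with a median of 0.15, beside the same 17.9% and 19.5%, and with all 8 arrays 0 were called (5 higher and 0 lower at an unadjusted p under 0.05). Chaf1b, a subunit of chromatin assembly factor 1, stood at 1.28 (SE 0.17, adjusted p = 2.0e-04), Mcm10, which helps to fire origins, at 1.13 (SE 0.135) and Orc6, of the origin recognition complex, at 1.03 (SE 0.11). In BMP-2+Dynasore against DMSO, 16 of the 28 were lower and 0 higher, and 15 of the 36 higher and 4 lower, where 18.9% of all tested probes were lower and 19.5% higher. The fit of 8 arrays left 2 of the 28 lower and 1 of the 36 higher.

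For Dynasore against DMSO, 5 of 15 tested G1 cyclins, kinases and E2F factors passed upward and 5 downward, beside 17.9% and 19.5% of all tested probes, and 0 passed in the fit of all 8 arrays (3 higher and 4 lower at an unadjusted p under 0.05). E2f3 stood at 1.96 (SE 0.16, adjusted p = 5.6e-06), E2f2 at -1.38 (SE 0.16, adjusted p = 7.7e-05) and Myc at 1.65 (SE 0.46, adjusted p = 0.044). The call of Myc was lost without any one of the DMSO or Dynasore arrays (adjusted p = 0.13 to 0.21). Of 16 tested inhibitors and pocket proteins, 7 were higher and 3 lower in that comparison, beside the same shares, and with all 8 arrays Gadd45g alone was called. The rises were those of Ccng2 at 0.94, Ccng1 at 0.83, Gadd45a at 0.83, Cdkn1a at 0.69, Rb1 at 0.45, Gadd45b at 0.43 and Btg1 at 0.32. The falls were those of Cdkn2c, an inhibitor of Cdk4 and Cdk6, at -1.30 (SE 0.22), Gadd45g, a stress-inducible gene, at -1.18 (SE 0.10) and Cdkn2d, a relative of Cdkn2c, at -1.09 (SE 0.16). Among the myoblast markers, Myod1, the myogenic factor, stood at -1.70 (SE 0.18) and Des, desmin, at -0.83 (SE 0.13) in Dynasore against DMSO. Myog stood at -0.35 (SE 0.17) and did not pass. With all 8 arrays 0 of the 3 tested were called (limma adjusted p = 0.48 for Myod1 and 0.24 for Des). The 4 myoblast markers on the array were also summed as linear levels. Des, with a DMSO mean of 12.73 against 7.89 for Myod1, makes up nearly all of that sum. On the log2 scale the sum was 12.78 to 12.84 in DMSO, 12.59 to 13.36 in BMP-2+DMSO, 11.95 to 12.01 in Dynasore and 11.55 to 11.92 in BMP-2+Dynasore. The part of these markers in the results above was not tested.

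**Figure D5:**
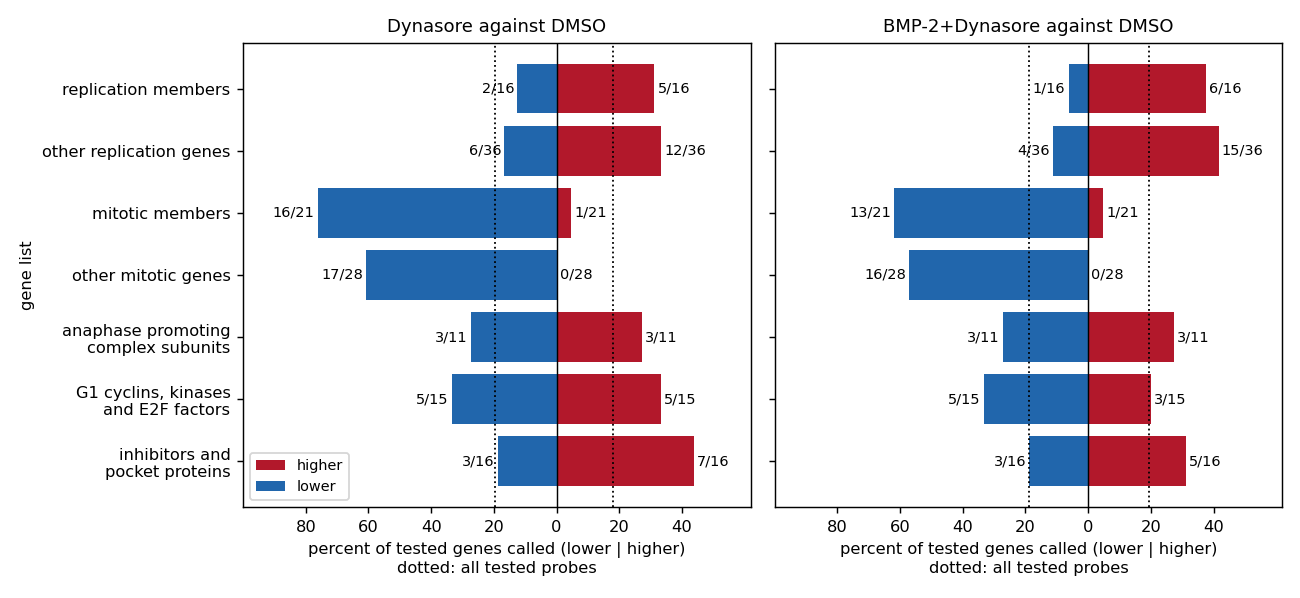
Percent of the tested genes of each list called lower (left of 0) and higher (right of 0) in Dynasore and in BMP-2+Dynasore against DMSO, with counts beside the bars and dotted lines for all tested probes. The mitotic lists stand at 16 of 21 and 17 of 28 genes lower in Dynasore, and both replication lists are called higher more often than lower.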

How the data were processed

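RNA of 8 C2C12 cultures, 2 biological duplicates for each of 4 groups, was hybridized to Illumina MouseRef-8 v2.0 arrays. The deposited values are probe intensities on a linear scale, which the authors background-subtracted and rank-invariant normalized in BeadStudio 3.0, so that dim probes can lie below 0. A second table, with 16 numbered columns that could not be tied to samples, was not used.

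Deposited intensities were corrected with normexp (offset 16), quantile normalized over the 8 arrays and converted to log2. Probes above background on at least 2 arrays (mode of the dim probes plus the upper 5% point) were tested with limma 3.58.1 in R 4.3.3 (lmFit, eBayes with trend and robust), with Benjamini-Hochberg adjustment over all tested probes. The fit on 7 arrays left out BMP-2+DMSO replicate 1 and had 3 residual degrees of freedom, against 4 with all 8 arrays. The number of arrays limits the precision. In all 6 comparisons were made. Values on every array were given for the 5 replication and 5 mitotic genes with the largest called change in Dynasore against DMSO whose arrays do not overlap. They were also given for up to 3 of each class in comparisons with BMP-2, for Cdc27 and for genes against the majority of their class. Up to 3 genes were named from each other list, and all called ones from the inhibitors and pocket proteins. The members and lists were chosen with earlier results of these data known. The procedure was tested on simulated data. Alternatives were other background corrections, normalizations, filters and tests, a replicate block, and leaving out each array. The main fits did not pair samples by replicate number. The differences between duplicates correlated at 0.50 for BMP-2+DMSO with BMP-2+Dynasore and at -0.28 to 0.0028 for the other pairs of groups.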

Additional observations from a re-analysis of the deposited data

Results flagged for a closer look

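The interaction differed from 0 by limma's test in 12 genes that were higher and 12 that were lower when BMP-2+DMSO replicate 2 stood for its group, and in 0 when replicate 1 did or when all 8 arrays were fitted. Among the named genes the log2 interaction with replicate 2 was 2.46 for Tk1, 2.36 for Tyms, 2.18 for Kif11, 1.95 for Birc5, 0.78 for Cdc20 and 0.64 for Mcm2. The value of Tyms is a fitted one and no measured size, since the gene was not above background on replicate 2. The interaction was -1.35 for Rrm2, -1.32 for Mcm4, -1.27 for Nusap1, -1.15 for E2f1 and -1.15 for Plk1. With replicate 1 the same 11 values lay between -0.20 for Mcm2 and 0.46 for Tyms. Replicate 2 is the array with the highest background, and its part in these differences was not tested.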

How the results depend on the processing

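Counts are out of 37 tested genes, and the cause of each change was not tested. With all 8 arrays the genes called higher and lower fell from 6 and 18 to 0 and 1 (Dynasore against DMSO), from 7 and 14 to 0 and 1 (BMP-2+Dynasore against DMSO), from 1 to 0 higher (BMP-2+Dynasore against Dynasore), from 16 and 13 to 0 and 0 (BMP-2+DMSO against DMSO), from 13 and 19 to 0 and 3 (BMP-2+Dynasore against BMP-2+DMSO) and from 12 and 12 to 0 and 0 (interaction). With replicate 1 standing for BMP-2+DMSO, and with quantile normalization over those 7 arrays, the last 3 became 2 and 0, 5 higher, and 0 and 0. Without further normalization BMP-2+DMSO against DMSO had 5 higher, BMP-2+Dynasore against BMP-2+DMSO 10 lower and the interaction 5 lower, and with equal medians the interaction had 19 lower. With probes above background on all 8 arrays only, they had 8 lower, 6 higher and 7 higher. The methods' one-way test gave 3 higher unadjusted and 2 after Benjamini-Hochberg for Dynasore against DMSO, and after adjustment 3 for BMP-2+Dynasore and 8 for BMP-2+DMSO against DMSO. eBayes without trend and robust gave 0 higher for BMP-2+Dynasore against Dynasore.

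Leaving out 1 array, with a lone array assumed to vary like the other groups, gave 3 to 8 higher and 14 to 19 lower (Dynasore against DMSO), 4 to 8 and 13 to 18 (BMP-2+Dynasore against DMSO), 0 to 6 and 0 to 5 (BMP-2+Dynasore against Dynasore), 15 to 16 and 11 to 15 (BMP-2+DMSO against DMSO), 12 to 14 and 19 to 20 (BMP-2+Dynasore against BMP-2+DMSO) and 10 to 14 and 9 to 14 (interaction). The replication and mitotic medians then ran from 0.21 to 0.40 and -1.01 to -0.92, 0.28 to 0.42 and -1.04 to -0.83, 0.020 to 0.18 and -0.064 to 0.035, 0.17 to 0.29 and -0.13 to 0.023, 0.23 to 0.41 and -0.77 to -0.53, and -0.22 to -0.099 and -0.13 to 0.18, in the same order.

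Dynasore against DMSO had a replication median of 0.18 without further normalization, 0.20 without a filter and 0.057 with probes above background on all arrays, and a mitotic median of -0.86 with an offset of 50, -1.09, -0.68 and -0.89 in that order. BMP-2+Dynasore against DMSO had a replication median of 0.088 without further normalization and a mitotic median of -0.85 with equal medians, -0.45 without a filter and -0.92 above background on all arrays. BMP-2+DMSO against DMSO had a replication median of 0.28 with a floor of 16, -0.51 without further normalization, 0.98 with equal medians, -0.062 without a filter and 0.68 above background on all arrays, and a mitotic median of -0.92, 0.56, -0.19 and 0.27 in the last 4. BMP-2+Dynasore against BMP-2+DMSO had a replication median of 0.23 with all 8 arrays, 0.20 with replicate 1, 0.50 with the floor, 0.29 with an offset of 50, 0.65 without further normalization, -0.61 with equal medians, 0.19 with quantile over the 7 arrays, -0.0069 without a filter and -0.64 above background on all arrays. Its mitotic median was -1.06 with replicate 1, -0.52 with an offset of 50, -0.25 without further normalization, -1.503 with equal medians, -1.01 with quantile over the 7 arrays and -0.39 without a filter. The interaction had a replication median of 0.33 without further normalization, -1.06 with equal medians, -0.017 without a filter and -0.55 above background on all arrays, and a mitotic median of 0.87, -0.52, 0.10 and -0.27. These scalings moved the median of all tested probes in BMP-2+DMSO against DMSO from 0.22 to -0.50 without further normalization and to 0.98 with equal medians.

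With the replicate number as a block the medians of BMP-2+Dynasore against BMP-2+DMSO were 0.31 and -0.59, and each count stayed within 1.5 times. Same-numbered samples correlated at -0.28 to 0.50 in their deviations, with the 0.50 between BMP-2+DMSO and BMP-2+Dynasore. In an alternative chosen after seeing the data, genes above background in 1 of the groups compared were set to their bound, and the replication median became 0.20 for Dynasore against DMSO, 0.28 for BMP-2+DMSO against DMSO and 0.071 for BMP-2+Dynasore against BMP-2+DMSO. Over 30 called pairs of a named gene and a comparison, interactions left out, 0 changed direction. The arrays of these pairs do not overlap, so swapping the replicate or leaving out an array could not reverse them. Over all settings 51 calls were lost, 26 of them with all 8 arrays. Outside those pairs, interactions such as that of Plk1 and the 8 genes without a direction in BMP-2+Dynasore against BMP-2+DMSO turned with the replicate. Dim probes limit Ccna2, Cdc6, Pcna and Ccne2.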
